A study of Mus musculus with 8 samples.

Results

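The UDP-glucuronosyltransferases described here were 10 genes, Ugt1a1, Ugt2a3, Ugt2b1, Ugt2b5, Ugt2b34, Ugt2b35, Ugt2b36, Ugt2b37, Ugt2b38 and Ugt3a2, found by an exact match of the symbol in a deposited table of 13703 gene rows. The genes were picked with their differences between the genotypes in these same values already known, so those differences are given as a description, without p-values. The samples were livers of mice of 2 genotypes, both put through the S-100 model of autoimmune hepatitis, in which mice are immunized against liver proteins. The first genotype, Alb-Cre Bicd2fl/fl (Alb-Cre, 4 libraries), carries Cre recombinase under the albumin promoter, which is active in hepatocytes, together with floxed alleles of Bicd2, an adaptor of the dynein motor. The second genotype, Alb-WT Bicd2fl/fl (Alb-WT, 4 libraries), carries the same floxed alleles without Cre. Mice of both genotypes received 2.5 mg of S-100, the supernatant of centrifuged liver homogenate, in complete Freund's adjuvant by intraperitoneal injection each week for 3 weeks, with harvest of the liver 2 weeks later. No unimmunized liver was among the samples, so every value describes an immunized liver. The labels used here give neither age nor sex, and they do not say whether each library came from its own animal, so any p-value measures the spread between these libraries, which may be technical.

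UDP-glucuronosyltransferases are enzymes of the endoplasmic reticulum membrane. They transfer glucuronic acid from UDP-glucuronate to bilirubin, steroids, bile acids, phenols and many drugs, which makes these compounds water soluble and ready for export into bile or blood. Hepatocytes are their main site in the liver. The Ugt1a genes share a locus on chromosome 1, where alternative first exons, each with its own promoter, are spliced to a common set of downstream exons. The Ugt2b genes and Ugt2a3 are separate genes in a cluster on chromosome 5, and the Ugt3a genes lie on chromosome 15.

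The largest differences among the 10 genes lay in the nearby paralogs Ugt2b37 and Ugt2b38, and the promoters below are shown because that pair differs from its close relative Ugt2b5 in these libraries. Each is the 250 bases before the annotated start in RefSeq's GRCm38.p6 assembly, on the minus strand of chromosome 5: chr5:87254789-87255038 for Ugt2b37, chr5:87424204-87424453 for Ugt2b38 and chr5:87140341-87140590 for Ugt2b5. Capitals mark the positions, within the span of the Ugt2b5 window, at which Ugt2b37 and Ugt2b38 carry the same base and Ugt2b5 carries another base or none.
Ugt2b37: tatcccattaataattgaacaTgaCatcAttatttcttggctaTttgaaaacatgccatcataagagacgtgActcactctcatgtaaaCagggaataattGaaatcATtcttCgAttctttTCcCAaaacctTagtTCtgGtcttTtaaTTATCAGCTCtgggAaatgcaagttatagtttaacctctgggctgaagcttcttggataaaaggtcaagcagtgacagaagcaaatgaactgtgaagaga
Ugt2b38: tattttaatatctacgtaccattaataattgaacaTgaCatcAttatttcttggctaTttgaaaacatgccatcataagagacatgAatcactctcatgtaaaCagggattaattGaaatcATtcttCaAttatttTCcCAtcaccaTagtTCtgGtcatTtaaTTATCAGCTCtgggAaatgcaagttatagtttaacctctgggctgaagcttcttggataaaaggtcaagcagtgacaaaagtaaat
Ugt2b5: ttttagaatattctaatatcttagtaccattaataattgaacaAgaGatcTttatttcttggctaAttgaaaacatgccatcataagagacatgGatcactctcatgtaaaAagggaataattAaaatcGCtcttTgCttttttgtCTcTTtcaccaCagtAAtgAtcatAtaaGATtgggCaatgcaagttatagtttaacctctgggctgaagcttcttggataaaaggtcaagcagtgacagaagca
Over aligned bases, Ugt2b37 and Ugt2b38 were identical at 94.1% (222 of 236), Ugt2b38 and Ugt2b5 at 86.7%, and Ugt2b37 and Ugt2b5 at 85.4%. Of 274 columns in the alignment of the 3 windows, 188 held the same base in all 3 genes, and 31 separated the pair from Ugt2b5. Most of these lie in the middle of the window, among them a short run that Ugt2b5 lacks, and no capital stands in the stretch nearest the start. The last bases of the Ugt2b37 and Ugt2b38 windows reach beyond the Ugt2b5 window. They were not compared with it and could carry no capital.

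The promoters of Ugt1a1 and Ugt1a9 are shown as well, because the values of these genes of the Ugt1a locus differed between the genotypes in opposite directions. Ugt1a1 lies at chr1:88211709-88211958 and Ugt1a9 at chr1:88070529-88070778, both on the plus strand of GRCm38.p6. Capitals mark matches, on either strand, to TAATNATT, the core of the site bound by HNF1, a transcription factor of the liver.
Ugt1a1: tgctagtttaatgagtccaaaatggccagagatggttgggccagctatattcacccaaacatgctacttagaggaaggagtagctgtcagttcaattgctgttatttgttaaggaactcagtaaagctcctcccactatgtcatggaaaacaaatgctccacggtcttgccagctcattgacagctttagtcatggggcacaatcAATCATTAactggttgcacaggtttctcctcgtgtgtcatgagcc
Ugt1a9: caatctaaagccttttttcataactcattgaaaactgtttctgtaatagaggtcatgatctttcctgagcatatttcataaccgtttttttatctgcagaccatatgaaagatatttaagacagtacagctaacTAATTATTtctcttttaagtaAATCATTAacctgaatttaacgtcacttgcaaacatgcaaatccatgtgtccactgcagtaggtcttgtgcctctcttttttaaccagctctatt
RefSeq's promoter table held 9 of the 10 genes, all but Ugt3a2. TAATNATT was found in 6 of these 9 promoters (Ugt1a1, Ugt2a3, Ugt2b5, Ugt2b35, Ugt2b37 and Ugt2b38) and in 3.11% of all 32851 promoter windows of the same length. The HNF1 hexamer GTTAAT, which can overlap that core, was found in 2 of 9 and in 6.43% of all windows. AGGTCA, a recognition hexamer of nuclear receptors such as HNF4A and PPARA, was found in 5 of 9 (Ugt2b5, Ugt2b35, Ugt2b36, Ugt2b37 and Ugt2b38) and in 14.0% of all, and AGTTCA, a recognition hexamer of the xenobiotic receptors CAR and PXR, in 2 of 9 (Ugt1a1 and Ugt2b37) and in 11.8% of all. GCGTG, the core of the aryl hydrocarbon receptor's element (28.2% of all windows), TGACNNNGC, that of NRF2 (10.2%), and TTCNNNGAA, that of STAT5 (7.02%), were each found in 0 of 9. The promoters of Ugt2b5, Ugt2b37 and Ugt2b38 were 85.4% to 94.1% identical, and each holds a match to TAATNATT and to AGGTCA in the same stretches of sequence. Ugt2b5 alone of these holds a further match to TAATNATT, at -134 to -127 from the start. Matches in these close copies are not separate instances, so the counts of 9 cannot be weighed against the share of all windows. All motifs were searched on both strands, and a match or its absence describes these letters in this window and nothing more.

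Close paralogs can share sequencing fragments, and how the authors counted such fragments is not given in the sources used here. In the GENCODE M21 annotation 58.9% of the exon bases counted for Ugt1a1 (1311 of 2224) are also exons of other Ugt1a genes, which leaves 913 bases of its own. The Ugt2a3, Ugt2b and Ugt3a2 genes share no exon with another gene, but their sequences are alike: the transcripts of Ugt2b5 and Ugt2b38 were 95.7% identical, those of Ugt2b37 and Ugt2b38 93.5%, and those of Ugt2b5 and Ugt2b37 93.3%. Of all stretches of 100 bases in the Ugt2b5 transcripts, 24.7% also occur in another gene, as do 24.2% of those in Ugt2b38 and 1.06% of those in Ugt2b37. For Ugt2a3, Ugt2b34, Ugt2b35, Ugt2b36, Ugt2b1 and Ugt3a2 that share was at most 0.595%. For stretches of 50 bases the shares were 41.7% for Ugt2b5, 37.4% for Ugt2b38, 18.3% for Ugt2b37 and 9.39% for Ugt3a2, and at most 4.55% for Ugt2a3, Ugt2b34, Ugt2b35, Ugt2b36 and Ugt2b1. At both lengths Ugt1a1, Ugt2b5 and Ugt2b38 shared the most sequence, and with the read length not given the values of these 3 genes, and of Ugt2b37 if reads were short, are uncertain on this count.

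Values are FPKM, fragment numbers divided by gene length and by the size of the library. Levels of different genes can thus be set side by side, within the limits of shared sequence given above. For Ugt1a1 the length is all 2224 exon bases, so its level beside other genes depends on how fragments of its shared exons were counted. The whole fragments behind the FPKM values, recovered from the steps between low values, summed to 32524927 to 38893858 per Alb-Cre library and 32985726 to 38541375 per Alb-WT library, with 26 to 34766 fragments for a listed gene in a library. Bicd2 had 0.705, 0.568, 0.509 and 0.732 FPKM in the Alb-Cre livers, against 2.46, 3.02, 2.80 and 3.11 FPKM in the Alb-WT livers (log2 difference of FPKM + 1 of -1.24, SE 0.08, limma adjusted p = 7.25e-05). The ratio of its means was 0.221. All log2 differences and log2 fold changes of the fits below are on this log2(FPKM + 1) scale unless another setting is named. It understates changes of low genes such as Bicd2, Onecut1 and Ugt1a6a. Alb-Cre replicate 4 stood apart from its group. Across genes its correlation with the other Alb-Cre libraries was 0.958 to 0.960 and with the Alb-WT libraries 0.974 to 0.977, whereas the other Alb-Cre libraries correlated with each other at 0.995 to 0.996. The summed level of 8 hepatocyte markers was 34255 FPKM in that library, against 42746 to 44183 FPKM in replicates 1 to 3 and 40634 to 41598 FPKM in the Alb-WT libraries. The macrophage markers had sums between 239 and 244 FPKM in replicates 1 to 3 of Alb-Cre, of 846 FPKM in its replicate 4 and between 846 and 884 FPKM in Alb-WT, and all 8 were called lower in Alb-Cre. Neutrophil markers came to between 6.77 and 7.09 FPKM in replicates 1 to 3 of Alb-Cre, 85.9 FPKM in its replicate 4 and between 262 and 324 FPKM in Alb-WT, with 4 of 4 tested genes lower and the defining genes Ly6g, Mpo, Ngp and Camp not in the table. The 4 tested cholangiocyte markers were also lower. Their sums were 36.4 to 41.3 FPKM in replicates 1 to 3 of Alb-Cre and 62.1 FPKM in its replicate 4. Alb-WT had 79.3 to 92.4 FPKM. T and NK cell markers came to between 1.17 and 1.27 FPKM in replicates 1 to 3 of Alb-Cre, 9.59 FPKM in its replicate 4 and between 5.42 and 7.62 FPKM in Alb-WT. For B and plasma cell markers the sums were 2.95 to 3.70 FPKM in those 3 libraries, 15.3 FPKM in replicate 4 and 5.88 to 7.10 FPKM in Alb-WT, so for both lists replicate 4 alone was above Alb-WT and the others were below it. Stellate cell markers summed to between 34.4 and 36.4 FPKM in replicates 1 to 3 of Alb-Cre and 46.3 FPKM in its replicate 4. In Alb-WT they summed to between 56.4 and 59.3 FPKM (3 lower and 1 higher of 7 tested). Endothelial markers summed to between 41.9 and 43.6 FPKM in replicates 1 to 3 of Alb-Cre, 31.8 FPKM in its replicate 4 and between 43.2 and 46.6 FPKM in Alb-WT (3 lower of 7 tested). Of 6 kidney tubule markers 1 was in the table, and of 7 enterocyte markers 2, Apoa4 and Fabp2, both called higher, whereas Vil1, Lct, Sis, Cdx2 and Alpi were not in it. Over all tested rows 8.48% were called higher in Alb-Cre and 23.3% lower. In bulk tissue, fewer cells of a type and less RNA per cell cannot be told apart.

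Ugt2b5 was the most abundant of the 10 genes in both genotypes, followed by Ugt2b36 and Ugt2b1. By mean FPKM the order in Alb-Cre was Ugt2b5, Ugt2b36, Ugt2b1, Ugt2a3, Ugt3a2, Ugt2b34, Ugt2b35, Ugt2b37, Ugt2b38 and Ugt1a1. In Alb-WT it was Ugt2b5, Ugt2b36, Ugt2b1, Ugt3a2, Ugt2b34, Ugt2a3, Ugt2b35, Ugt1a1, Ugt2b38 and Ugt2b37. In Alb-Cre the ranges of neighbours in that order overlapped everywhere except between Ugt2b35 and Ugt2b37, and in Alb-WT no neighbours overlapped. Ugt2b37 thus stood last in Alb-WT and above Ugt2b38 and Ugt1a1 in Alb-Cre, and Ugt2a3 stood above Ugt3a2 and Ugt2b34 in Alb-Cre, by mean. The rank of Ugt1a1 is uncertain, since most of its exon bases are shared with other Ugt1a genes. The sum of the 10 genes was 1465, 1549, 1344 and 818 FPKM in Alb-Cre and 1290.3, 1283, 1304 and 1225 FPKM in Alb-WT. Apart from Alb-Cre replicate 4, with the lowest sum of the 8 libraries, every Alb-Cre sum was above every Alb-WT sum. The FPKM of all rows also summed to more in those Alb-Cre libraries, 438797 to 442133, against 399391 to 410679 in Alb-WT. Sums of the 10 genes were not scaled to these totals, so no difference in the family's share of the total is read from them.

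**Figure D1:**
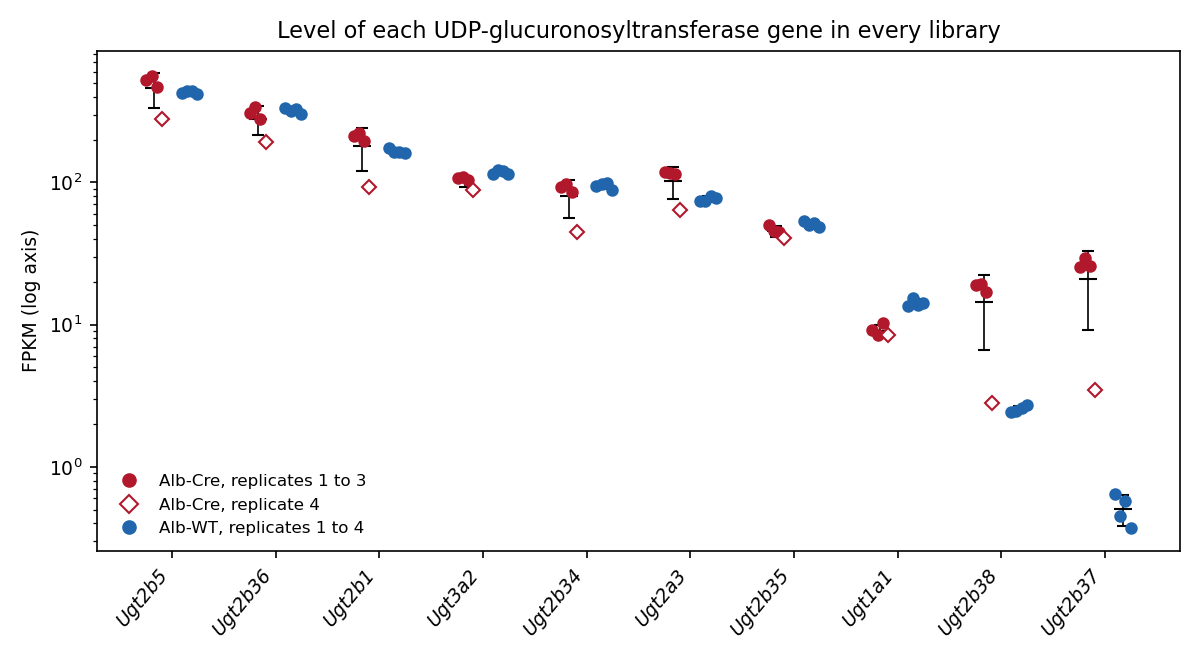
FPKM on a log axis of each of the 10 genes in each liver library, Alb-Cre (red, left) beside Alb-WT (blue, right), with black bars for mean ± SD (n = 4 each) and an open diamond for Alb-Cre replicate 4. Ugt2b37 and Ugt2b38 are higher in all 4 Alb-Cre libraries, Ugt1a1 and Ugt3a2 are lower in all 4, and the diamond is the lowest Alb-Cre point in 9 of the 10 genes. For Ugt2b38 the diamond, at 2.82 FPKM, is only just above the highest Alb-WT library, at 2.71 FPKM.

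Ugt2b37 was the lowest of the 10 genes in Alb-WT livers and was above 25 FPKM in all but 1 of the Alb-Cre livers. It had 25.4, 29.4, 25.7 and 3.48 FPKM in Alb-Cre, against 0.646, 0.448, 0.571 and 0.370 FPKM in Alb-WT. Every Alb-Cre library was above every Alb-WT library, but replicate 4 held 13.0% of the mean of the other Alb-Cre libraries, and 6.84 times the Alb-WT mean. Behind these levels stood 1579, 1864, 1740 and 258 fragments in Alb-Cre and 41, 33, 36 and 26 in Alb-WT. The means were 21.0 ± 11.8 FPKM in Alb-Cre and 0.509 ± 0.123 FPKM in Alb-WT (SD, n = 4 each), a ratio of 41.3, and 52.7 without replicate 4. On the log2(FPKM + 1) scale, which understates changes of low genes, the difference was 3.55 (SE 0.55), and 4.21 (SE 0.08) without replicate 4.

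Ugt2b38, the nearest relative of Ugt2b37 by promoter, had 19.0, 19.3, 16.9 and 2.82 FPKM in Alb-Cre livers, against 2.43, 2.46, 2.59 and 2.71 FPKM in Alb-WT livers. Replicates 1 to 3 of Alb-Cre were far above Alb-WT, and replicate 4, at 1.11 times the Alb-WT mean, was just above the highest Alb-WT library. The means were 14.5 ± 7.85 FPKM in Alb-Cre and 2.55 ± 0.129 FPKM in Alb-WT, a ratio of 5.69, and 7.21 without replicate 4. The log2 difference was 1.86 (SE 0.49), and 2.45 without replicate 4. Fragments for Ugt2b38 numbered 1176, 1221, 1142 and 209 in Alb-Cre and 154, 181, 163 and 190 in Alb-WT.

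The proportion of Ugt2b37 to Ugt2b38 differed between the genotypes. Ugt2b37 was 1.34, 1.52, 1.52 and 1.23 times Ugt2b38 in the Alb-Cre libraries, against 0.266, 0.182, 0.221 and 0.137 times in the Alb-WT libraries. The groups did not overlap, and on this ratio Alb-Cre replicate 4 stood near its own group. Set against Ugt2b5, with which Ugt2b38 shares the most sequence, Ugt2b38 came to 3.61%, 3.45%, 3.60% and 1.01% of the Ugt2b5 level in Alb-Cre and 0.569%, 0.560%, 0.586% and 0.651% in Alb-WT. In each Alb-Cre library that share was above every Alb-WT value. Ugt2b37 came to 4.84%, 5.26%, 5.47% and 1.24% of Ugt2b5 in Alb-Cre and 0.151%, 0.102%, 0.129% and 0.0889% in Alb-WT, so it differed in proportion to Ugt2b5 as well.

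Ugt2a3, whose human counterpart conjugates bile acids, lies between Ugt2b37 and Ugt2b38 in the cluster. It had 117, 117, 114 and 64.1 FPKM in Alb-Cre livers, against 74.4, 73.7, 80.8 and 77.4 FPKM in Alb-WT livers. Alb-Cre replicates 1 to 3 were above every Alb-WT library and replicate 4 was below every one. The means were 103 ± 26.0 FPKM in Alb-Cre and 76.6 ± 3.26 FPKM in Alb-WT, a log2 difference of 0.38 (SE 0.18), and 0.59 without replicate 4. Its ratio to Ugt2b34, a gene at the other end of the cluster, was 1.27, 1.20, 1.32 and 1.42 in Alb-Cre, against 0.791, 0.754, 0.822 and 0.875 in Alb-WT. Relative to Ugt2b34, Ugt2a3 was thus higher in every Alb-Cre library, replicate 4 included. In replicate 4 both genes were low, Ugt2a3 at 83.7% and Ugt2b34 at 47.6% of the Alb-WT mean. The ratio there depends on the choice of Ugt2b34.

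For the abundant genes Ugt2b5 and Ugt2b1 the mean difference was near 0 only with Alb-Cre replicate 4 included. Ugt2b5 had 525, 559, 469.7 and 279.6 FPKM in Alb-Cre, against 427, 439.9, 442 and 417 FPKM in Alb-WT (log2 difference 0.04, SE 0.20). Ugt2b1, whose rat counterpart conjugates testosterone and bisphenol A, had 211, 224, 194 and 93.3 FPKM in Alb-Cre, against 175, 165, 164 and 159.8 FPKM in Alb-WT (0.04, SE 0.25). Both genes were higher than every Alb-WT library in Alb-Cre replicates 1 to 3 and lower than every one in replicate 4, so the sign of the small mean difference turned for Ugt2b1 when Alb-Cre replicate 1, 2 or 3 was left out and for Ugt2b5 when Alb-Cre replicate 1 or 2 was. Without replicate 4 the log2 difference was 0.26 for Ugt2b5 and 0.33 for Ugt2b1. The ratio of one to the other overlapped between the genotypes, Ugt2b1 being between 0.334 and 0.413 times Ugt2b5 in Alb-Cre and between 0.370 and 0.411 times in Alb-WT.

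Ugt2b36, Ugt2b34 and Ugt2b35 had mean levels below those of Alb-WT. Ugt2b36 had 309, 341, 279 and 192 FPKM in Alb-Cre, against 334, 316, 331 and 301 FPKM in Alb-WT. Ugt2b34 had 92.3, 97.4, 86.2 and 45.0 FPKM in Alb-Cre, against 94.1, 97.8, 98.3 and 88.5 FPKM in Alb-WT. For both genes Alb-Cre replicates 1 to 3 lay among or near the Alb-WT libraries and replicate 4 far below them, and the log2 difference of -0.23 (SE 0.16) for Ugt2b36 and -0.30 (SE 0.22) for Ugt2b34 came to -0.05 and -0.04 without it. Ugt2b35, the only gene of the cluster's 8 on the plus strand, had 50.5, 45.8, 44.8 and 40.6 FPKM in Alb-Cre, against 53.5, 50.1, 51.9 and 48.7 FPKM in Alb-WT. Its groups overlapped in 1 Alb-Cre library, with a log2 difference of -0.17 (SE 0.08), and scaling by median-of-ratios size factors gave 0.026.

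**Figure D2:**
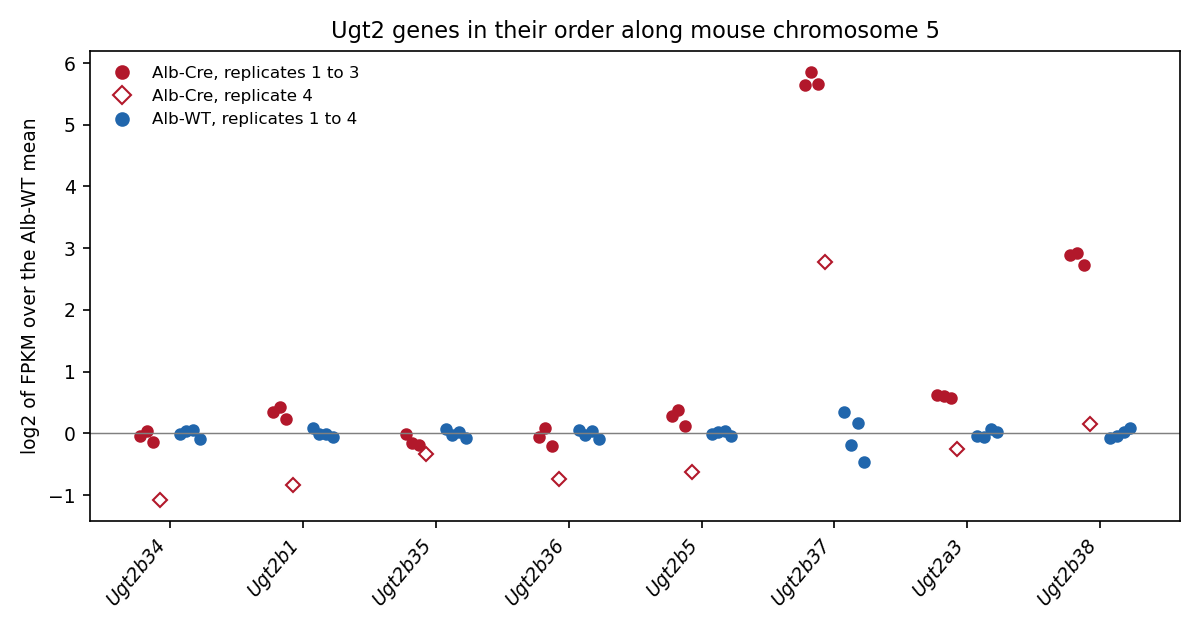
Log2 of each library's FPKM over the Alb-WT mean, without a pseudocount, for the 8 genes of the chromosome 5 cluster in their order along the chromosome, Alb-Cre (red, left, replicate 4 as an open diamond) beside Alb-WT (blue, right). Ugt2b37 and Ugt2b38 lie highest, Ugt2a3 between them is modestly above 0 in Alb-Cre replicates 1 to 3, and the diamond is below the other Alb-Cre points for each of the 8 genes.

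Ugt1a1, the transferase that conjugates bilirubin, was lower in Alb-Cre livers. It had 9.12, 8.43, 10.2 and 8.50 FPKM in Alb-Cre, against 13.5, 15.4, 13.7 and 14.1 FPKM in Alb-WT. The groups did not overlap, and Alb-Cre replicate 4 lay within the range of its group. The means were 9.06 ± 0.818 FPKM in Alb-Cre and 14.2 ± 0.871 FPKM in Alb-WT, a log2 difference of -0.59 (SE 0.08), and -0.57 without replicate 4. Recovered fragments for Ugt1a1 were 665, 628, 811 and 740 in Alb-Cre and 1004, 1333, 1014 and 1162 in Alb-WT.

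Other genes of the Ugt1a locus, which are not among the 10 genes and were tested, went both ways. Of 5 tested UGT genes outside the 10, 1 was higher and 2 were lower in Alb-Cre, all 3 in this locus. Over all tested rows 8.48% were called higher and 23.3% lower. Without Alb-Cre replicate 4 the counts were 3 and 2, where 15.2% of all rows were called higher and 46.1% lower. Ugt1a9, whose human counterpart conjugates phenols such as propofol, rose to 11.6, 11.7, 14.5 and 11.7 FPKM in Alb-Cre, against 7.27, 7.84, 8.49 and 6.83 FPKM in Alb-WT (log2 fold change 0.63, SE 0.09, limma adjusted p = 0.00251). Ugt1a6b, of the Ugt1a6 enzymes that conjugate planar phenols, fell to 6.14, 7.12, 7.01 and 7.84 FPKM in Alb-Cre, against 11.1, 10.4, 9.76 and 9.13 FPKM in Alb-WT (-0.47, SE 0.09, limma adjusted p = 0.00649). Its near copy Ugt1a6a, at 0.617 ± 0.227 FPKM in Alb-Cre and 1.35 ± 0.176 FPKM in Alb-WT, fell as well (-0.55, SE 0.11, limma adjusted p = 0.00877), although fragments of such a pair can be split between the copies. Ugt1a5 had 4.04, 4.69, 4.47 and 5.62 FPKM in Alb-Cre, against 3.99, 3.85, 3.86 and 3.33 FPKM in Alb-WT. These did not overlap but missed the threshold (0.26, SE 0.09, limma adjusted p = 0.0645), which Ugt1a5 passed without Alb-Cre replicate 4 (limma adjusted p = 0.0481) and under both alternative scalings. Ugt1a7c and Ugt1a10 were listed at levels too low to test, Ugt1a7c with 4 to 35 fragments in Alb-Cre libraries and 24 to 33 in Alb-WT libraries, and Ugt1a10 with 3 to 16 in Alb-Cre libraries and 1 to 4 in Alb-WT libraries.

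The total over the locus differed less than its parts. The 7 listed Ugt1a genes summed to 31.8, 32.5, 36.9 and 34.8 FPKM in Alb-Cre and 37.5, 39.0, 37.6 and 34.7 FPKM in Alb-WT, ranges that overlapped. Ugt1a9 was 1.28, 1.38, 1.42 and 1.38 times Ugt1a1 in Alb-Cre, against 0.540, 0.509, 0.620 and 0.484 times in Alb-WT. Ugt1a9 was thus the higher of the pair in every Alb-Cre library, and Ugt1a1 was the higher in every Alb-WT library. Since 59.9% of the Ugt1a9 exon bases, like 58.9% of those of Ugt1a1, are also exons of other Ugt1a genes, these are not values of the first exons alone, and how the common exons bear on the ratio was not tested.

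**Figure D3:**
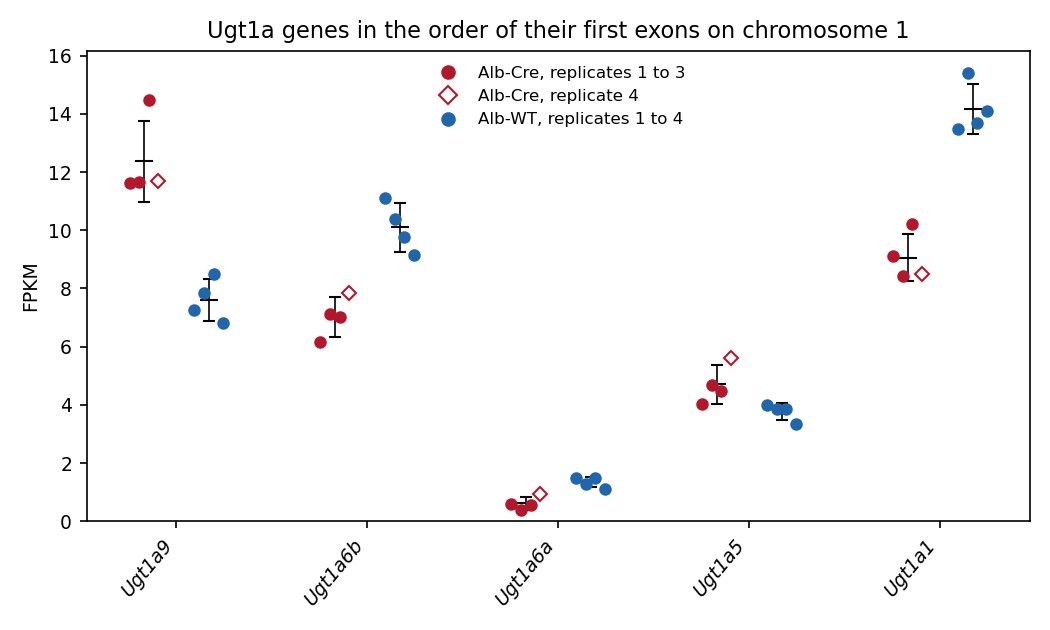
FPKM of the 5 tested Ugt1a genes of chromosome 1 per liver library, Alb-Cre (red, left) beside Alb-WT (blue, right), with black bars for mean ± SD (n = 4 each) and an open diamond for Alb-Cre replicate 4. Ugt1a9 is higher and Ugt1a1, Ugt1a6a and Ugt1a6b are lower in all 4 Alb-Cre libraries than in any Alb-WT library.

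Ugt3a2, of a subfamily whose human members use sugars other than glucuronic acid, had 107, 108, 104 and 88.6 FPKM in Alb-Cre livers, against 115, 122, 119.9 and 115 FPKM in Alb-WT livers. Every Alb-Cre library was below every Alb-WT library, by a mean log2 difference of -0.22 (SE 0.08), or -0.15 without replicate 4, and median-of-ratios scaling left -0.021. Its neighbour Ugt3a1, which is not among the 10, had 17.8, 19.9, 19.5 and 8.29 FPKM in Alb-Cre, against 13.9, 14.7, 15.8 and 13.7 FPKM in Alb-WT. Ugt3a1 was not called with all libraries (0.09, SE 0.24, limma adjusted p = 0.774), but without Alb-Cre replicate 4 it was higher in Alb-Cre (0.37, limma adjusted p = 0.000576). Ugt8a, of the enzyme that makes galactosylceramide, was listed with between 2 and 12 fragments in Alb-Cre and between 2 and 32 in Alb-WT and was too low to test.

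As shares of the summed FPKM of the 10 genes, Ugt2b5 took 35.3% ± 0.868 in Alb-Cre and 33.8% ± 0.513 in Alb-WT, and Ugt2b36 took 21.8% ± 1.20 in Alb-Cre and 25.1% ± 0.614 in Alb-WT. Ugt2b1 stood at 13.7% ± 1.51 in Alb-Cre and 13.0% ± 0.436 in Alb-WT. The share of Ugt2a3 was 7.96% ± 0.392 in Alb-Cre and 6.01% ± 0.295 in Alb-WT, and that of Ugt2b34 6.13% ± 0.416 in Alb-Cre and 7.42% ± 0.189 in Alb-WT. Ugt2b37 and Ugt2b38 were a small part of the family in both genotypes: Ugt2b37 made up 1.49% ± 0.716 in Alb-Cre and 0.0397% ± 0.009 in Alb-WT, and Ugt2b38 1.03% ± 0.461 in Alb-Cre and 0.200% ± 0.015 in Alb-WT. Ugt3a2 held 8.20% ± 1.78 in Alb-Cre and 9.26% ± 0.260 in Alb-WT, Ugt2b35 3.68% ± 0.886 in Alb-Cre and 4.00% ± 0.102 in Alb-WT, and Ugt1a1 0.741% ± 0.218 in Alb-Cre and 1.11% ± 0.078 in Alb-WT. Shared exons leave the Ugt1a1 share uncertain, like its rank. Alb-Cre replicate 4 differed from its group in composition too: Ugt2b37 was 0.425% of the sum there and 1.73% to 1.91% in Alb-Cre replicates 1 to 3, and Ugt3a2 was 10.8% there and 6.99% to 7.71% in the others.

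Of the 10 genes, all of which passed the minimum mean of 0.5 FPKM, 2 were called higher in Alb-Cre (Ugt2b37 and Ugt2b38) and 1 lower (Ugt1a1), at a limma adjusted p under 0.05. Over all 11077 tested rows 8.48% were called higher and 23.3% lower, 31.8% in all. Without Alb-Cre replicate 4 the counts were 5 higher and 2 lower, where 15.2% of all rows were called higher and 46.1% lower, 61.3% in all. By lack of overlap, 2 genes were higher and 2 lower in Alb-Cre, against 9.27% and 21.4% of all rows, 30.6% in all. The call of Ugt2b38 was lost under voom and on leaving out any single library other than Alb-Cre replicate 4, which left 1 gene called higher. Because the genes were chosen on this contrast, nothing is read from these counts. Their median log2 difference was -0.06 and that of all rows -0.13, and without replicate 4 the medians were 0.11 and -0.16. Scaling bears on small differences here: median-of-ratios scaling gave a median of all rows of 0.02 and made 55.3% of the calls higher, in place of 26.7%, without turning the direction of Ugt2b37, Ugt2b38, Ugt2a3, Ugt1a1 or Ugt1a9.

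Among the genes that supply, carry and remove glucuronic acid, 2 of 17 tested were higher in Alb-Cre and 1 lower (median 0.05). Over all rows 8.48% were called higher and 23.3% lower. Slc35b1, a nucleotide transporter of the endoplasmic reticulum, rose to 34.9 ± 6.80 FPKM in Alb-Cre, against 19.1 ± 2.11 FPKM in Alb-WT (0.82, SE 0.13, limma adjusted p = 0.00355). Cmpk1, a kinase of UMP and CMP, rose to 39.5 ± 1.26 FPKM, against 30.6 ± 1.38 FPKM in Alb-WT (0.36, limma adjusted p = 0.00397). Gusb, the lysosomal enzyme that splits glucuronides, fell to 6.70 ± 0.997 FPKM, against 8.97 ± 0.322 FPKM in Alb-WT (-0.38, limma adjusted p = 0.0189), a call lost under median-of-ratios scaling and without Alb-Cre replicate 2, Alb-WT replicate 2 or Alb-WT replicate 3. Ugdh, which makes UDP-glucuronate, was not called (0.05, limma adjusted p = 0.689), nor was Ugp2, which makes its precursor (-0.15, limma adjusted p = 0.226). Without Alb-Cre replicate 4 the list had 6 higher and 3 lower, against 15.2% and 46.1% of all rows.

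Of 16 tested transcription factors known for UGT promoters, 4 were higher and 3 lower in Alb-Cre (median -0.09), against 8.48% and 23.3% of all rows. Without Alb-Cre replicate 4 the counts were 4 and 7, against 15.2% and 46.1% of all rows. Nr1i3, which encodes the xenobiotic receptor CAR, fell to 1.71, 1.77, 1.82 and 2.21 FPKM in Alb-Cre, against 3.46, 3.69, 4.30 and 3.72 FPKM in Alb-WT (-0.74, SE 0.08, limma adjusted p = 0.000759). Onecut1, which encodes HNF6, rose to 1.66, 1.63, 1.73 and 0.789 FPKM in Alb-Cre, against 0.0870, 0.281, 0.153 and 0.0853 FPKM in Alb-WT (1.07, limma adjusted p = 0.00152). Ppara, a receptor for fatty acids, and Nfe2l2, which encodes the transcription factor NRF2, fell by 0.39 and 0.35 (limma adjusted p = 0.0055 and 0.00596). Both calls were lost under median-of-ratios scaling.

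Target genes of the xenobiotic receptors went both ways: of 28 tested, 6 were higher and 4 lower (median -0.06), against 8.48% and 23.3% of all rows. Without Alb-Cre replicate 4 the counts were 11 and 11, against 15.2% and 46.1% of all rows. Cyp2b10, the classical target of CAR, fell to 1.13, 2.01, 1.84 and 2.18 FPKM in Alb-Cre, against 14.1, 12.5, 12.7 and 11.2 FPKM in Alb-WT (-2.30, SE 0.13, limma adjusted p = 4.03e-05). Gadd45b, a stress gene that CAR ligands raise, fell to 2.01 ± 0.566 FPKM, against 6.03 ± 0.530 FPKM in Alb-WT (-1.24, limma adjusted p = 0.000496). Cyp3a13 fell to 85.0 ± 4.12 FPKM, against 117 ± 2.03 FPKM in Alb-WT (-0.46, limma adjusted p = 0.00147), a call lost under median-of-ratios scaling. Cyp4a10, a fatty acid hydroxylase and target of PPARA, rose to 37.3 ± 17.2 FPKM, against 9.39 ± 0.0908 FPKM in Alb-WT (1.79, limma adjusted p = 0.00154), and replicate 4 of Alb-Cre, at 63.0 FPKM, was its highest library.

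In the list of bilirubin handling and conjugate export, 5 of 12 tested genes were lower in Alb-Cre (median -0.18), and 6 without Alb-Cre replicate 4. Of all rows 23.3% were called lower, and 46.1% without that library. By limma 0 of the list were called higher (also 0 by voom, 1 at an unadjusted p under 0.05, and 3 without Alb-Cre replicate 4). For all rows that share was 8.48%, and 15.2% without Alb-Cre replicate 4. Abcc2, the pump that exports bilirubin glucuronides into bile, fell to 28.9, 28.6, 26.9 and 30.9 FPKM in Alb-Cre, against 44.9, 43.3, 45.7 and 41.9 FPKM in Alb-WT (-0.59, SE 0.06, limma adjusted p = 0.000568). Abcc3, which exports conjugates into blood, fell to 19.6 ± 4.78 FPKM, against 37.8 ± 1.42 FPKM in Alb-WT (-0.94, limma adjusted p = 0.00285). Slco1a4, an uptake transporter of organic anions, fell to 4.48 ± 0.317 FPKM, against 9.56 ± 0.248 FPKM in Alb-WT (-0.95, limma adjusted p = 7.26e-05). Hmox1, which opens heme on the way to bilirubin and which macrophages also express, had 9.86, 9.28, 9.25 and 31.5 FPKM in Alb-Cre, against 32.5, 34.9, 33.8 and 33.6 FPKM in Alb-WT (-1.32, SE 0.34, limma adjusted p = 0.0213). Its pattern over the libraries was that of the summed macrophage markers given above, whose part in the Hmox1 difference was not tested, and its call was lost on leaving out any library other than Alb-Cre replicate 4.

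Other conjugating enzymes gave 5 higher and 3 lower of 13 tested (median 0.21), against 8.48% and 23.3% of all rows. Without Alb-Cre replicate 4 the counts were 9 and 3, against 15.2% and 46.1% of all rows. The sulfotransferase Sult1b1 rose to 11.2 ± 3.26 FPKM in Alb-Cre, against 4.49 ± 0.546 FPKM in Alb-WT (1.11, limma adjusted p = 0.00659). Its relative Sult1d1 fell to 54.7 ± 4.60 FPKM, against 87.2 ± 10.3 FPKM in Alb-WT (-0.66, limma adjusted p = 0.00307). Baat, which joins bile acids to taurine, fell by 0.31 (limma adjusted p = 0.0088), a call lost under median-of-ratios scaling (limma adjusted p = 0.389), and Tpmt, a methyltransferase of thiopurines, rose by 0.24 (limma adjusted p = 0.0235), a call that leaving out most single libraries ended.

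**Figure D4:**
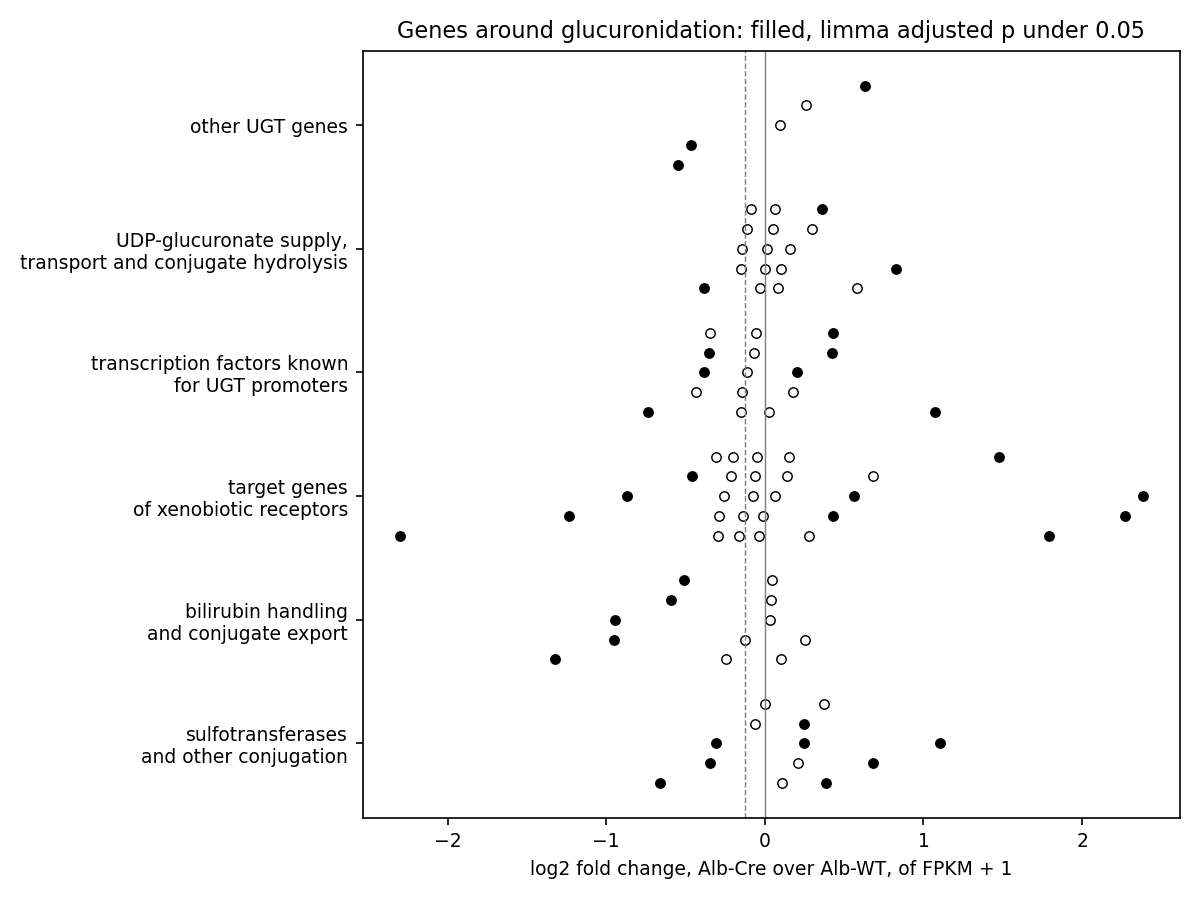
Log2(FPKM + 1) difference of Alb-Cre minus Alb-WT for each tested gene of the 6 lists of related genes (vertical scatter within a list only separates points), filled where limma's adjusted p was under 0.05, with a dashed line at -0.13, the median of all tested genes. Each list holds genes on both sides of the line, and Cyp2b10 of the receptor targets is the lowest point at -2.30.

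Some of the genes had similar patterns over the 8 libraries, given as a description since libraries of a group share a genotype. Pearson's r of the log2(FPKM + 1) values was 0.988 between Ugt2b1 and Ugt2b5, 0.978 between Ugt2b34 and Ugt2b36, 0.972 between Ugt2b37 and Ugt2b38 and 0.956 between Ugt2a3 and Ugt2b38. Ugt2b35 was most like Ugt3a2 (0.865), which lies on another chromosome, and between Ugt1a1 and Ugt2b37 r was -0.838. Of 9582 genes whose mean reached 1 FPKM, the patterns most like that of Ugt2b37 were those of Thrsp (r = 0.998), a lipogenic gene, Nudt7 (0.998), a peroxisomal hydrolase of coenzyme A, and Cyp2a12 (0.997), a steroid hydroxylase. The patterns most like that of Ugt1a1 were those of 4833411C07Rik (0.991), Tbc1d30 (0.989) and Prpf8 (0.988), a core protein of the spliceosome.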

How the data were processed

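Bulk RNA libraries of mouse liver (8) were analysed, grouped by their titles. Illumina libraries were made from Trizol-extracted total RNA, per the labels' protocols. The descriptions also name 10x Genomics, a maker of single-cell kits, although the table has 1 column per library. The deposited values are FPKM as the authors computed them. The submitters' processing notes name HISAT2 2.0.5 and both a mouse and a human genome build without a role. Not given in the sources used here are the counting tool, its handling of multiply mapped fragments, the annotation, the strand setting and the read length. The table held 13703 rows with no value of 0, so genes absent from it (Ugt1a2, Ugt1a8, Ugt2a1 and Ugt2a2 among them) are not analysed here.

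Whole fragments per gene were recovered from the spacing of the FPKM values in 13703 rows (100%, tolerance 1e-05), and the implied gene length equalled the merged exon length of GENCODE M21 for 12703 of 13443 matched genes (94.5%), the 18 UGT genes included. Recovered fragments made up 99.1% to 99.3% of the library totals used for scaling. Rows whose mean reached 0.5 FPKM (11077) were fitted as log2(FPKM + 1) with limma 3.58.1 (R 4.3.3, empirical Bayes with a trend, genotype only), and p-values were Benjamini-Hochberg adjusted over all of them. The members and the gene lists were chosen with earlier results of these data known. Named genes are all 10 members, every other UGT gene in the table, the 4 called genes of smallest p in each other list, Bicd2, and the 3 genes most like Ugt1a1 and like the members of largest and smallest log2 difference. Ugdh, Ugp2 and the markers were named after their values were seen. Alternatives were pseudocount 0.1, no filter, a mean of at least 5 FPKM, median-of-ratios and quantile scaling, a replicate block, each library left out and, chosen after seeing the data, voom on recovered fragments. Simulated counts of 11077 genes had the same relative spread for every gene and no outlying library. In them 91.0% of 67 genes changed 1.5-fold and 100% of 67 changed 2-fold were called in the right direction. There were 9 calls among 10877 unchanged genes. The real genes differed in spread and Alb-Cre replicate 4 stood apart, so these shares do not give the power in the real libraries. Promoters and gene order came from RefSeq (GRCm38.p6), and sequences were aligned with MAFFT 7.526.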

Additional observations from a re-analysis of the deposited data

Results flagged for a closer look

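Among 88 groups of 4 libraries (44 named genes in 2 genotypes), 14 had a library whose gap to the nearest other was a larger part of the group's range than Dixon's limit for 4 values allows, and chance flags about 1 group in 20. Of these, 11 were Alb-Cre replicate 4. In that library Ugt2a3 (gap 0.929 of the range), Ugt2b37 (0.847) and Ugt2b38 (0.855) were low, at 64.1, 3.48 and 2.82 FPKM against 114 to 117, 25.4 to 29.4 and 16.9 to 19.3 FPKM in replicates 1 to 3. Also low there were Onecut1 (0.901), Sult1b1 (0.862), Thrsp (0.904), Nudt7 (0.888) and Cyp2a12 (0.861), the last 3 of which were named for being most like Ugt2b37 over these libraries and so are not separate instances. The genes that were high in it were Slc35b1 (0.905), Cyp4a10 (0.914) and Hmox1 (0.973), the last at 31.5 FPKM against 9.25 to 9.86 FPKM. Ugt1a9 (0.971) stood out in Alb-Cre replicate 3, at 14.5 FPKM against 11.6 to 11.7 FPKM, and Cyp3a13 (0.882) in Alb-Cre replicate 2, at 91.1 FPKM against 82.3 to 83.3 FPKM. Prpf8 (0.830) stood out in Alb-WT replicate 2, at 20.1 FPKM against 19.4 to 19.5 FPKM. What sets Alb-Cre replicate 4 apart was not tested.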

How the results depend on the processing

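The directions of Ugt2b37, Ugt2b38, Ugt2a3 and Ugt1a1 were the same under every alternative run, with log2 differences of 3.29 to 4.96 for Ugt2b37, 1.65 to 2.45 for Ugt2b38, 0.25 to 0.59 for Ugt2a3 and -0.65 to -0.41 for Ugt1a1. Differences near 0 turned over: Ugt2b1 to -0.028 under quantile normalization and to between -0.084 and 0.33 with a library left out (below 0 without Alb-Cre replicate 1, 2 or 3), Ugt2b5 to -0.031 under quantile normalization and to between -0.072 and 0.26 with a library left out (below 0 without Alb-Cre replicate 1 or 2), Ugt2b35 to 0.026 under median-of-ratios scaling, and Ugt3a1 to between -0.018 and 0.37 with a library left out (below 0 without Alb-Cre replicate 2 or 3). The cause was not tested.

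Rows called higher and lower were 939 and 2582 with all libraries, 1872 and 1516 under median-of-ratios scaling, and 1554 and 1469 under quantile normalization. At a mean of at least 5 FPKM only 4754 rows were tested, in place of 11077, and 981 of them were called lower. With a library left out the counts were 546 to 1679 and 1205 to 5112, both maxima without Alb-Cre replicate 4. Replicate numbers are shared between the groups, but same-numbered libraries did not deviate together (correlations -0.097 to 0.013). No library correlated best with its own number, so the numbers are not taken as pairs. With a replicate block 613 rows were called higher and 1631 lower, the transcription factors had 1 higher and the other conjugating enzymes 2. Members called higher numbered 1 under voom (Ugt2b38 was lost) and 1 to 5 with a library left out, and of the fits with a library left out only that without Alb-Cre replicate 4 called Ugt2b38; members called lower numbered 3 under quantile normalization, 2 under voom and 1 to 2 with a library left out. Other UGT genes had 2 higher under median-of-ratios and quantile scaling and 1 to 3 higher with a library left out. At 5 FPKM they had 1 lower, where 3 of the 5 were tested and Ugt1a6a was not. Under median-of-ratios scaling the glucuronate list had 5 higher and 0 lower, the factors 1 lower and the other conjugating enzymes 1 lower, and under quantile normalization the glucuronate list had 2 lower. With a library left out the counts of higher and lower genes were 2 to 6 and 0 to 3 for the glucuronate list, 1 to 4 and 3 to 7 for the factors, 5 to 11 and 4 to 11 for the receptor targets, 0 to 3 and 3 to 6 for bilirubin handling, and 1 to 9 and 2 to 3 for the other conjugating enzymes. Depth limits Ugt2b37 in Alb-WT, Ugt1a7c, Ugt1a10 and Ugt8a most.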
